A study of Mus musculus with 18 samples.

Results

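RNA bound to tagged ribosomes was set against total RNA in mouse brain that carried a glioma. The comparison held 6 of the 18 libraries of the study, 3 of immunoprecipitated polysomal RNA (IP) and 3 of total RNA (input), all from tumor mice, and it was made over every gene with enough counts. The libraries were taken by their labels and paired by their replicate number. All mice, those of the other groups included, were Camk2a-Cre-Rpl22HA. In this design Cre under the Camk2a promoter adds an HA tag to Rpl22, a protein of the large ribosomal subunit, so that ribosomes of Cre-expressing cells, mainly excitatory forebrain neurons, can be pulled down. The implanted glioma cells were put into the cortex, and the labels give the tissue as brain. The side groups were control mice without tumor and tumor mice treated with the mTOR inhibitor AZD8055 (AZD), each with 3 input and 3 IP libraries. Ages are not given in the labels, and whether a replicate number stands for an animal of its own is not said, so a p-value here reflects the variation among libraries, part of which may be technical.

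The ribosome IP works by enrichment and not by purification. RNA of tagged cells is concentrated on the beads, while RNA of glia, vessels, tumor cells and nuclei is carried along to some degree as background. An mRNA is also enriched if it holds many ribosomes, and a noncoding RNA that stays in the nucleus should be left behind. The IP over input ratio of a gene therefore joins cell type, ribosome loading and background, and in bulk samples fewer cells of a type and less RNA per cell cannot be told apart.

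The 3 tumor inputs totalled 23448015, 22579403 and 17853365 counts, and the 3 tumor IPs 16673120, 22143077 and 31561226. The library names place the input and the IP of control and tumor mice in different sets (PD013 and PD015), and all AZD libraries in another set (PD028). In tumor IP against input the fraction and the library set cannot be told apart. In the difference of IP over input between tumor and control, the set is common to both conditions. AZD IP against AZD input lies within a single set, but AZD against tumor changes set and treatment together.

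Of 15245 genes tested in tumor IP against input, 5433 (35.6%) were called at an adjusted p under 0.05. The test was edgeR's quasi-likelihood F test with the replicate number as a block and Benjamini-Hochberg adjustment, and it is meant wherever an adjusted p is printed below. Of the calls, 2676 were higher in IP (17.6% of the genes tested) and 2757 were lower (18.1%). When libraries were scaled by total counts in place of TMM, 1832 were higher and 3863 lower, so the split rests on the scaling. Most calls were small. Among genes higher in IP, 1871 had a log2 fold under 0.5 and 286 reached 1, a doubling, and the median was 0.38. Among genes lower in IP, 1516 had a log2 fold nearer to 0 than -0.5 and 379 reached -1, with a median of -0.47. The sign was the same in all 3 pairs for 2607 of the higher and 2711 of the lower calls.

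The number of calls rested on the pairing. Without the block, 322 genes were higher and 454 lower. DESeq2, which the design text names for this comparison, called 814 higher and 914 lower without the block and 2220 higher and 1779 lower with it. The pairing is described with the processing, and counts without it are given below beside the gene groups.

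The driver gene and its cell type were enriched, to a modest degree. Camk2a, a kinase gene of excitatory synapses with the promoter used for Cre, stood at 226, 351 and 713 CPM in tumor input replicates 1, 2 and 3 and at 547, 787 and 824 CPM in IP. CPM give a gene's count relative to the total of its library, after TMM scaling over all 18 libraries. Each IP library was above its own input, but input replicate 3 was above IP replicate 1. The fitted log2 fold of Camk2a was 0.89 ± 0.13 (adjusted p = 6.8e-06), against 0.70 in control and 1.39 with AZD. Without the replicate block Camk2a was not called in tumor, with an adjusted p of 0.336 by edgeR and 0.212 by DESeq2. Here and below ± is a standard error derived from the fit, the log2 fold over the square root of F. Its variance is shared in part across genes, so it is not the spread of the 3 pairs. For a difference between conditions it rests on the pairs of both. Slc17a7, the vesicular glutamate transporter of cortical excitatory neurons, stood at 447, 693 and 513 CPM in input and 640, 678 and 524 in IP. The groups overlapped, and Slc17a7 was not called (log2 fold 0.18 ± 0.10, adjusted p = 0.155). Rpl22, the tagged ribosomal gene, was alike in both fractions, with a log2 fold of 0.04 ± 0.08 and an adjusted p of 0.726. Counts of the gene do not separate the tagged allele.

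Of 31 excitatory neuron markers, 17 were higher in tumor IP and 3 lower, with a median log2 fold of 0.35, where the median of all genes tested was -0.01. The synaptic vesicle gene Sv2b of excitatory cells stood at 460, 714 and 570 CPM in input and 871, 890 and 837 in IP, with no overlap between the fractions (log2 fold 0.60 ± 0.10, adjusted p = 2.6e-05). The transcription factor gene Mef2c (0.55 ± 0.09), the calcium sensor gene Hpca (0.54 ± 0.08) and the transporter gene Slc17a6 (0.65 ± 0.11) were also higher. Without the replicate block, neither edgeR nor DESeq2 called Mef2c, Hpca or Slc17a6. Arpp21, a phosphoprotein of forebrain neurons, was not called at -0.06 ± 0.08. In control mice, 15 of the 31 markers were higher and 4 lower. By edgeR, 0 of them differed between tumor and control in the ratio itself (2 higher and 1 lower at an unadjusted p under 0.05, and 0 by DESeq2). With no replicate block edgeR called 0 of the 31 in tumor, and DESeq2 2.

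The size of the enrichment was uneven over the pairs. The median log2 ratio of the excitatory markers was 0.51 in pair 1, 0.29 in pair 2 and 0.12 in pair 3. Their summed level in input was 3450, 5355 and 5705 CPM in the same order, and in IP it was 5077, 6371 and 6400. The input library with the least excitatory marker RNA was therefore in the pair with the largest ratio, and the IP libraries spread less than the inputs. All control inputs stood higher, from 8506 to 8643 CPM.

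Genes of the presynapse and of neuronal excitability were often higher in tumor IP, but unevenly over the pairs. Of 46 synaptic vesicle and exocytosis genes, 28 were higher and 4 lower, with a median log2 fold of 0.26. The fit with no block called 1 of them and DESeq2 5. Syp, which encodes the vesicle protein synaptophysin, reached 0.64 ± 0.09, Sv2a 0.59 ± 0.08 and Synpr, synaptoporin, 0.62 ± 0.08. Of 49 voltage-gated channel genes, 22 were higher and 4 lower (median 0.17), led by the calcium channel subunit Cacnb4 at 0.82 ± 0.08. The median log2 ratio in pairs 1, 2 and 3 was 0.52, 0.26 and 0.08 for the vesicle list and 0.37, 0.13 and 0.06 for the channel list. Without replicate 1, 19 vesicle genes were higher and 6 lower, and 10 channel genes were higher and 5 lower. Of 20 genes in the GABA receptor list, 9 were higher and 1 lower. The lower gene was Gabarap, which encodes a receptor-associated protein and not a receptor subunit. With no block edgeR called 0 genes of the channel list and 0 of the GABA receptor list. DESeq2 called 1 lower channel gene and 1 receptor list gene in each direction.

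Of 47 glutamate receptor and postsynaptic scaffold genes, 12 were higher and 8 lower, with a median of 0.11, where 17.6% of all genes tested were higher and 18.1% lower. Scaled by total counts 8 were higher and 12 lower, and with no block edgeR called 1 lower and DESeq2 1 higher and 3 lower. The scaffold genes Dlg3 (1.04 ± 0.08) and Homer1 (0.69 ± 0.08) were higher. Grin1, the obligatory subunit of the NMDA receptor, was lower, at 133, 193 and 204 CPM in input and 89.9, 113 and 109 in IP (-0.75 ± 0.08, adjusted p = 1.8e-07). The log2 fold of Grin1 was -0.83 in control and 0.90 with AZD, where both fractions lie in a single library set. Gria2, an AMPA receptor subunit, was not called, at 0.06 ± 0.08.

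**Figure D1:**
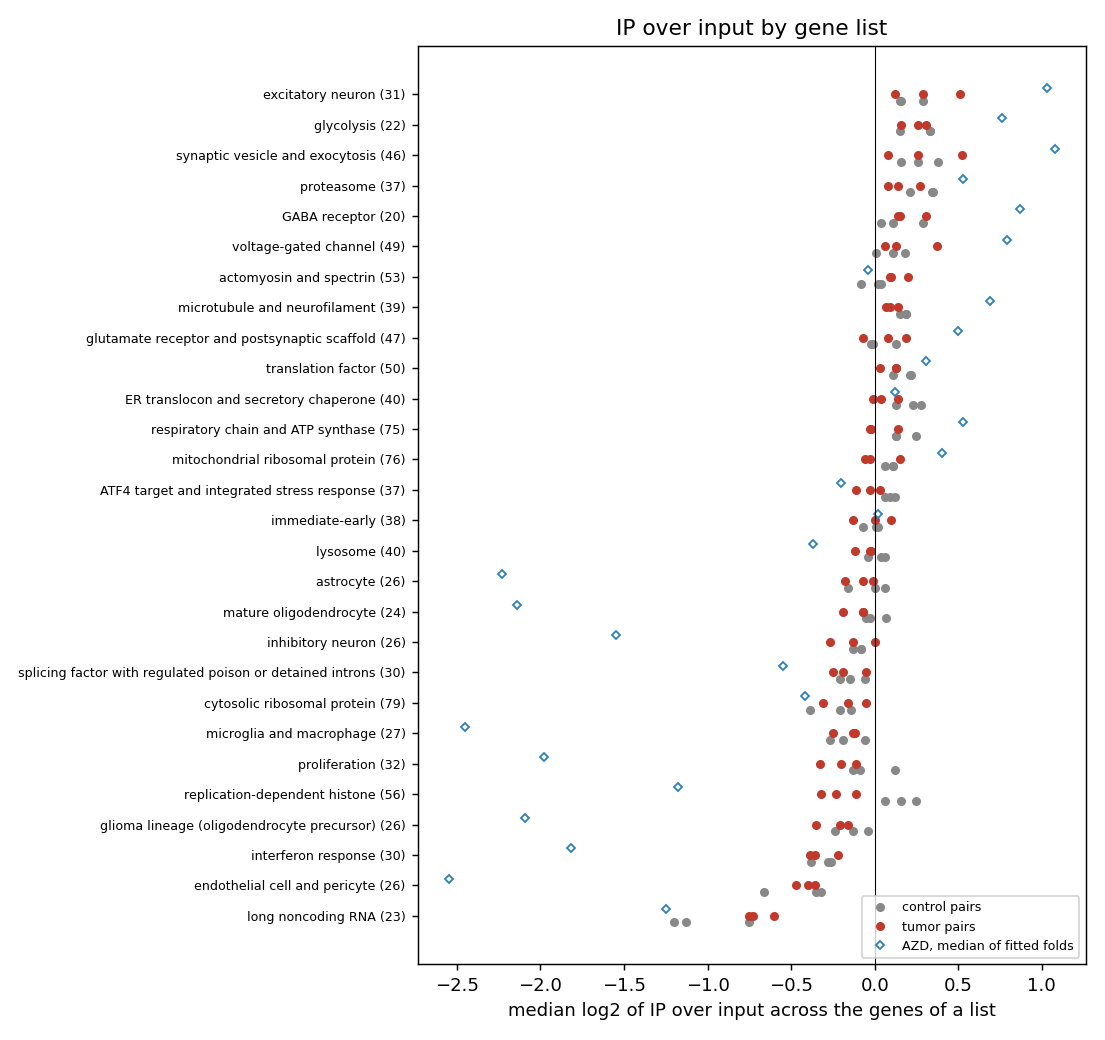
Median log2 of IP over input (horizontal axis) for 28 gene lists, with the number of genes tested in tumor in parentheses. Grey and red points are the 3 control and the 3 tumor pairs, and open blue diamonds are the median of the fitted folds with AZD. The tumor pairs lie near the control pairs for most lists, between -0.75 and 0.52, whereas the lists of glia, vessels and proliferation lie far lower with AZD.

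Among markers of other cells, the calls in tumor IP were mostly lower. For several cell types most markers were not called, as was so for all genes tested (35.6% called). Of 26 endothelial and pericyte genes, 19 were lower and 0 higher, with a median log2 fold of -0.38. At an unadjusted p under 0.05 in edgeR, 20 were lower and 0 higher, and DESeq2 with the block called 12 lower and 0 higher. Without the block edgeR called 0 in either direction and DESeq2 6 lower. Slco1a4, an organic anion transporter of brain endothelium, stood at 28.9, 85.5 and 73.5 CPM in input and 16.4, 46.5 and 48.5 in IP, lower within each pair although the fractions overlapped (-0.76 ± 0.09). Flt1 (-0.51 ± 0.09), Pecam1 (-0.57 ± 0.11) and the pericyte receptor Pdgfrb (-0.60 ± 0.10) were lower too, while the tight-junction gene Cldn5 was not called at -0.09 ± 0.11.

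Of 26 markers of the oligodendrocyte precursor lineage, used here as the glioma lineage list, 13 were lower and 1 higher. Their median log2 fold was -0.25. With no block edgeR called 3 lower and DESeq2 7. Their summed level was 13710, 11260 and 12250 CPM in input and 10520, 9674 and 10280 in IP, so each IP library was below each input library. In control input, from mice without tumor, the summed level lay between 1787 and 2058 CPM. Sox10, a transcription factor of the lineage, fell from 250, 184 and 257 CPM in input to 144, 126 and 130 in IP (-0.77 ± 0.09, adjusted p = 1.61e-07), and the proteoglycan gene Vcan (-0.77 ± 0.08) and the phosphatase gene Ptprz1 (-0.58 ± 0.08) were also lower. Pdgfra, the growth factor receptor of the lineage, stood at 3256, 2185 and 2612 CPM in input and 2572, 1967 and 2356 in IP, and was not called (-0.21 ± 0.08, adjusted p = 0.0554). Olig2 was not called either, at -0.15 ± 0.08. Scaled by total counts, Pdgfra and Olig2 were both called lower (-0.29 and -0.23). The summed level of the list in tumor IP was thus several times that of control input.

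Of 32 proliferation genes, 14 were lower and 0 higher, with a median of -0.23. At an unadjusted p under 0.05 in edgeR, 18 were lower and 2 higher, and DESeq2 with the block called 10 lower and 0 higher. Without the block edgeR called 0 of them and DESeq2 2 lower. The mitotic kinesin genes Kif11 (-0.36 ± 0.09) and Kif20a (-0.55 ± 0.11) were lower, and Mki67 was lower at -0.24 ± 0.08 (adjusted p = 0.0237). Mki67 was not called without replicate 3 (-0.17, adjusted p = 0.178), and Kif11 not without replicate 1 (-0.27, adjusted p = 0.0615). Of 26 astrocyte markers 9 were lower and 2 higher, with microglia and macrophage markers lower in 8 of 27 and higher in 1, and mature oligodendrocyte markers lower in 5 of 24 and higher in 0. At an unadjusted p under 0.05 in edgeR, 8 oligodendrocyte markers were lower and 0 higher, and DESeq2 with the block called 3 lower and 0 higher. Aqp4, Gfap and C1qa were not called, with log2 folds of -0.08, 0.12 and 0.23, and the myelin gene Mbp was lower at -0.41 ± 0.08. Of 26 inhibitory neuron markers, 10 were lower and 3 higher. With no block edgeR called 0 astrocyte and 0 oligodendrocyte markers, 1 higher microglia marker and 1 lower inhibitory marker, and DESeq2 2, 1, 1 and 1 in these lists. Gad1 and Gad2, which make GABA, were not called, at -0.10 ± 0.08 and -0.09 ± 0.08.

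Depletion of other cells was much larger with AZD. The median log2 fold of the glioma lineage list was -2.09 there against -0.25 in tumor. That of endothelial genes was -2.55 against -0.38, and that of astrocyte markers -2.23 against -0.07. The excitatory markers had a median of 1.03 with AZD. Across all 15782 genes tested, the ratio itself differed between AZD and tumor for 3442 higher (21.8%) and 4332 lower genes (27.4%), a contrast in which set and treatment cannot be told apart.

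**Figure D2:**
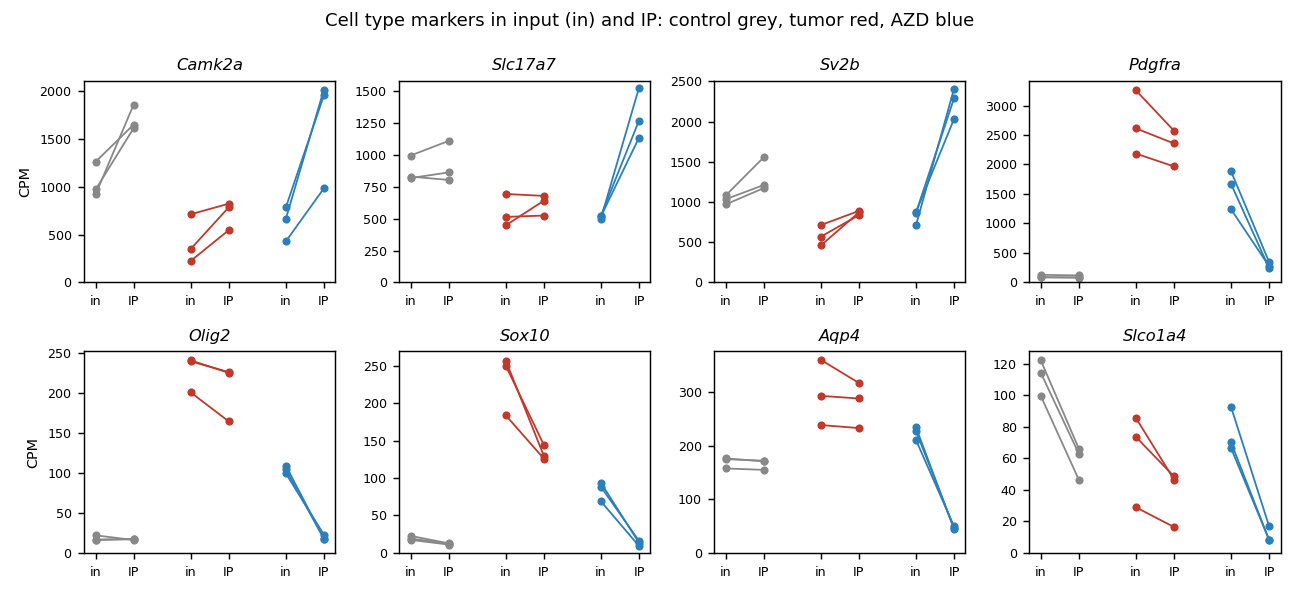
CPM (vertical axis, from 0) of 8 cell type markers in input (in) and IP, with a line for each numbered pair of control (grey), tumor (red) and AZD (blue). Camk2a and Sv2b were higher in IP in each tumor pair, while Pdgfra, Olig2, Sox10 and Slco1a4 were lower in IP in each tumor pair, and the ratio of IP to input was nearer to 1 in tumor than with AZD.

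Small guide RNAs were among the genes with the lowest ratios. Bricd5, a protein-coding gene, was lower still, with 695, 292 and 360 counts in tumor input and 0 in each tumor IP. It had 25, 11 and 15 counts in control input, 0 in each control IP and 0 in every AZD library, input included. Small nucleolar and Cajal body RNAs, which guide the chemical modification of ribosomal and spliceosomal RNA, were grouped by symbol after their values were seen, so they are described with no test as a group. Of 51 tested, 42 were lower in tumor IP and 1, Snord91a, was higher, where 18.1% of all genes tested were lower. The median log2 fold was -1.99. Snord91a averaged only 0.165 CPM in tumor input, against 2.418 in tumor IP and 2.485 in AZD input. With AZD its ratio was not called (0.30). Snord15a stood at 34.7, 24.4 and 14.99 CPM in input and 0.953, 0.363 and 0.227 in IP (-5.64 ± 0.19, adjusted p = 1.38e-17), and Snord15b at 98.8, 105 and 53.4 CPM against 1.63, 2.77 and 3.89. The fractions lay far apart in each pair. Both lie inside Rps3 by RefSeq coordinates. Snord17 (-4.33 ± 0.20), inside Snx5, and Scarna6 (-2.90 ± 0.14), inside Atg16l1, were also among the 15 lowest genes. Reads of the host introns cannot be told apart from reads of these RNAs where the counting did not separate them.

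Of 23 long noncoding RNAs, 18 were lower and 1 higher, with a median log2 fold of -0.70. Without the replicate block edgeR called 1 lower and DESeq2 7. Meg3, a maternally expressed noncoding RNA of neurons, stood at 400, 797 and 1069 CPM in input and 232, 479 and 474 in IP (-0.90 ± 0.09, adjusted p = 2.61e-08). Malat1, a nuclear RNA of all cells and among the most abundant here, fell from 11520, 11660 and 15440 CPM to 9414, 8866 and 8988, with no overlap (-0.48 ± 0.10), but was not called without replicate 3 (-0.33, adjusted p = 0.0829). Gas5 (-1.05 ± 0.09), Miat (-0.76 ± 0.08) and Snhg11 (-0.91 ± 0.09) were lower, and Tug1 was not called at -0.05 ± 0.08. In control the median of the list was -1.15 and with AZD -1.25, so depletion was numerically deeper there. The ratio was called higher in tumor than in control for 2 of the 23 and lower for 0. At an unadjusted p under 0.05 in edgeR, 11 were higher and 0 lower, and DESeq2 with the block called 3 higher and 0 lower. For Malat1 the difference was 0.71 ± 0.20 and not called (adjusted p = 0.142). Among splicing factors whose transcripts keep introns in the nucleus, 12 of 30 were lower and 4 higher (0 higher and 7 lower with no block). The lower ones included Clk1 at -1.22 ± 0.10, Ccnl2 at -1.23 ± 0.10 and Snrnp70 at -0.81 ± 0.08.

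Most mRNAs of the translation machinery were not called, nor were most of all genes tested (17.6% higher, 18.1% lower). Ribosomal protein genes were lower more often than that. Of 79 cytosolic ribosomal protein genes, 34 were lower and 1 higher in tumor IP, with a median of -0.15. When the block was left out, edgeR called 4 lower and DESeq2 10. The lower members included genes of short proteins of the large subunit. Rpl39 stood at 127, 99.1 and 81.8 CPM in input and 56.7, 35.2 and 36.2 in IP, with no overlap (-1.27 ± 0.09, adjusted p = 2.88e-11). Rpl38 (-0.94 ± 0.09), Rpl32 (-0.79 ± 0.09) and Rpl31 (-0.70 ± 0.08) followed, while Rpl4 (0.07 ± 0.08) and Rpl7 (-0.02 ± 0.09) were not called. In control, 42 of 79 were lower and 1 higher, with a median of -0.23.

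Ribosomal protein mRNAs are known to begin with a C and a run of pyrimidines at the very start of the transcript, through which mTOR controls their translation. The starts of 3 members that were lower and of 1 that was not called are shown for that reason, as 30 bases of GRCm38.p6 from RefSeq with the annotated start as base 11. Capitals mark the longest run of a C followed by at least 4 bases that are each C or T, read on the strand of the gene, that begins within 5 bases of the annotated start.
Rpl39: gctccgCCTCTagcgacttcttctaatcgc
Rpl38: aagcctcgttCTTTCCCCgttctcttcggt
Rpl31: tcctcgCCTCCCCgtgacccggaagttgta
Rpl4: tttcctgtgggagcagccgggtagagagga
These lie on chromosome X, 37085203 to 37085232 on the minus strand, chromosome 11, 114668570 to 114668599 on the plus strand, chromosome 1, 39367841 to 39367870 on the plus strand, and chromosome 9, 64173377 to 64173406 on the plus strand. In the first window listed for each gene, such a run was present for 28 of 59 ribosomal protein genes (47.5%) and for 2222 of all 11129 tested genes with a window (20%). It was present for 11 of 24 ribosomal protein genes that were lower and 17 of 34 that were not called, shares of 45.8% and 50%. The run is a match of letters at an annotated start and not a measured transcript end.

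Of 50 translation factor genes, 16 were higher and 4 lower, with a median of 0.11. Scaled by total counts, 7 were higher and 5 lower with a median of 0.03, and with no block edgeR called 0 in either direction and DESeq2 3 higher. The poly(A) binding protein gene Pabpc1 (0.52 ± 0.09), the initiation factor gene Eif3b (0.53 ± 0.11) and the release factor gene Etf1 (0.37 ± 0.08) were higher, while the elongation factor genes Eef1a1 and Eef2 were not called. Of 37 proteasome genes, 15 were higher and 0 lower (median 0.18), led by Psmd11 at 0.74 ± 0.10. At an unadjusted p under 0.05 in edgeR, 18 were higher and 0 lower, and DESeq2 with the block called 14 higher and 0 lower. Of 22 glycolysis genes, 13 were higher and 1 lower (median 0.28), among them the neuronal enolase gene Eno2 at 0.42 ± 0.08 and Pgk1 at 0.47 ± 0.08. With no block edgeR called 1 proteasome and 1 glycolysis gene, both higher, and DESeq2 7 and 3. Scaled by total counts, 9 proteasome genes were higher and 1 lower. Aldoc, the aldolase of astrocytes, was not called at -0.13 ± 0.09.

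**Figure D3:**
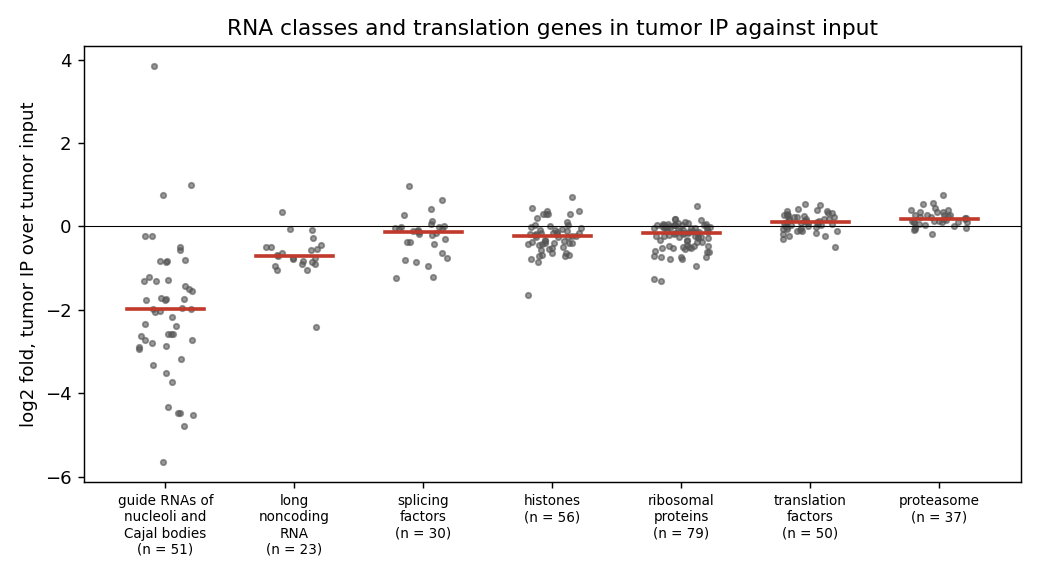
Log2 fold of tumor IP over tumor input (vertical axis) for each gene tested in 7 groups, with the median as a red bar and sideways scatter only for legibility. The guide RNAs reach from -5.64 to 3.85 with a median of -1.99, the long noncoding RNAs have a median of -0.70, and the groups of mRNAs have medians between -0.23 and 0.18.

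The highest folds belonged to genes that were almost absent from the input libraries of set PD013. Tumor input held 0, 1 and 0 counts of Cdr1, whereas tumor IP held 755, 1755 and 2464. It had 1, 0 and 1 in control input, but 1618, 1204 and 1452 counts in AZD input, above the 249, 686 and 1360 in AZD IP. Klhl34 was also nearly absent from tumor input, with 3, 0 and 3 counts there, 445, 921 and 1275 in tumor IP and 461 to 611 in AZD input, and unlike Cdr1 it was higher in AZD IP, at 698 to 2130. Cd163, the haemoglobin scavenger receptor of macrophages, was the microglia and macrophage marker that was higher in IP, at 3.90, 1.95 and 2.24 CPM in input and 21.5, 14.1 and 17.2 in IP (2.72 ± 0.14, adjusted p = 1.19e-13). With AZD it was lower in IP (-1.11).

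This held for many of the large folds. Of the 286 genes at least 2-fold higher in tumor IP, 179 (62.6%) were also at least 2-fold higher in AZD input than in both tumor and control input, against 245 of 15245 genes tested (1.61%). In control IP against input, 164 of the 286 were also called higher. Within the single set of AZD, 54 of them were called higher and 91 lower. Of the 379 genes at least 2-fold lower in tumor IP, 39 (10.3%) were at least 2-fold lower in AZD input than in the other inputs, against 57 of all genes tested (0.374%). Of these 379, 320 were lower in control too, and 285 were called lower and 12 higher with AZD. The tumor inputs enter both the choice of the 286 and 379 genes and the comparison with AZD input. Shares above those of all genes were therefore favoured in advance. The part of the library set in the folds of single genes was not tested, since set and fraction cannot be told apart here.

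Several of the 15 lowest genes followed this pattern. Lypd1, which encodes a membrane-anchored modulator of nicotinic receptors, stood at 35.8, 56.5 and 55.0 CPM in tumor input and 7.07, 11.2 and 11.6 in IP (-2.30 ± 0.10), but at 8.25, 9.63 and 11.4 CPM in AZD input. The repair endonuclease gene Apex1 (-2.25 ± 0.10 in tumor, 0.48 with AZD) and the polymerase III factor gene Gtf3a (-2.26 ± 0.12, -0.38 with AZD) are further cases. By contrast Leng8 (-1.99 ± 0.09) and the corepressor gene Tle2 (-1.89 ± 0.13) were also lower with AZD, at -3.07 and -2.29.

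Calls in tumor and in control were largely shared. Among 14677 genes tested in both, 2068 were higher in both, 79.5% of the tumor calls and 63.6% of the control calls, and 2128 were lower in both (79.3% and 62.7%). In control, 21.9% of the genes tested were higher and 23.1% lower. With AZD, 33.2% were higher and 35.7% lower, 1947 genes were higher in both (73.1% of the tumor calls, 39.1% of the AZD calls) and 1900 lower in both (70.1% and 36.1%).

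The ratio itself differed between tumor and control for few genes. Of 15775 genes tested for the difference, 92 (0.583%) had a higher and 20 (0.127%) a lower IP over input ratio in tumor, and 1511 had an unadjusted p under 0.05. The actomyosin and spectrin list, which covers the contractile motors and the membrane skeleton, held 16 of the 92. They were 16 of the 53 members tested, but the list was chosen with earlier results of these data known. Its count is therefore a description and no independent support. By edgeR 0 members were lower (3 at an unadjusted p under 0.05, and 0 by DESeq2). Without the replicate block 2 members were called higher, where 6 of all genes were higher and 4 lower. Under the 11 other alternatives 14 to 17 members were called higher, among 50 to 227 higher genes in all. All alternatives reuse the same libraries. In tumor alone, 23 of the 53 were higher in IP and 10 lower. With no block edgeR called 8 higher and 1 lower, and DESeq2 13 and 3.

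Myh9, the heavy chain of nonmuscle myosin IIA (chromosome 15, 77760585 to 77842175, GRCm38.p6), stood at 196, 131 and 163 CPM in tumor input and 445, 512 and 486 in tumor IP. In control it was at 97.8, 95.2 and 91.3 in input and 76.0, 68.5 and 72.1 in IP. The fractions did not overlap in either condition, and they went in opposite directions. The log2 fold was 1.58 ± 0.10 in tumor and -0.41 in control, a difference of 1.98 ± 0.15 (adjusted p = 1.29e-07). With AZD Myh9 was lower in IP, at -1.20.

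Myh10, the heavy chain of myosin IIB and the main form in neurons, stood at 176, 253 and 298 CPM in tumor input and 445, 1065 and 953 in IP, and at 331 to 349 and 342 to 382 CPM in the control fractions. The difference was 1.64 ± 0.15 (adjusted p = 1.4e-06). The third isoform, Myh14, had a difference of 1.30 ± 0.13. Ppp1r9a, which encodes the actin-binding scaffold neurabin of dendritic spines (chromosome 6, 4902872 to 5165661), was at 325, 557 and 542 CPM in tumor input and 1052, 2722 and 2242 in IP, the highest of the actomyosin list (2.02 ± 0.10), against 0.46 in control. Limch1, a regulator of nonmuscle myosin, had a difference of 1.58 ± 0.14. For Myh9, Myh10, Ppp1r9a and Limch1 the IP library of replicate 1 had the lowest level of the 3 IP libraries, and no tumor IP library overlapped with a tumor input library. Without the replicate block the differences of Myh10, Myh14, Ppp1r9a and Sptbn1 kept their size, from 1.29 to 1.70, with adjusted p from 0.0503 to 0.476.

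The spectrins, which form the lattice under the neuronal membrane, behaved alike. Sptbn1 stood at 779, 1104 and 1307 CPM in tumor input and 1754, 3318 and 3613 in IP (1.41 ± 0.09 in tumor, difference 1.61 ± 0.14). Sptan1, the alpha chain, reached 1.04 ± 0.10 in tumor with a difference of 1.54 ± 0.15, and Sptb and Sptbn4 had differences of 1.25 and 0.80. Other members with a higher ratio in tumor included the drebrin gene Dbn1 (1.54 ± 0.15), the actinin genes Actn1 and Actn2 (0.53 and 1.15), the transport myosins Myo5a and Myo6 (1.02 and 0.80) and Flna, filamin A (0.70). Flna was lower in IP in both conditions, at -1.15 in tumor and -1.85 in control. The call of Actn1 was lost whichever of the 6 pairs of libraries was left out (adjusted p up to 0.224), and that of Flna in 4 of the 6 cases (up to 0.188). The actin-severing gene Cfl1 (difference -0.32) and Ppp1r9b, the paralog of neurabin (0.06), were not called.

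The list's summed level rose with the fraction in tumor and not in control. It was 14140, 14390 and 15260 CPM in tumor input and 18220, 25360 and 25710 in tumor IP, against 15370 to 15590 in control input. The median of the list was 0.14 in tumor and -0.01 in control, so the sum was carried by part of the members. Sptan1, Dbn1, Sptb, Sptbn4, Myh14, Actn1, Actn2, Myo5a, Myo6 and Flna are outside the rule for naming genes and were named after their values were seen.

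**Figure D4:**
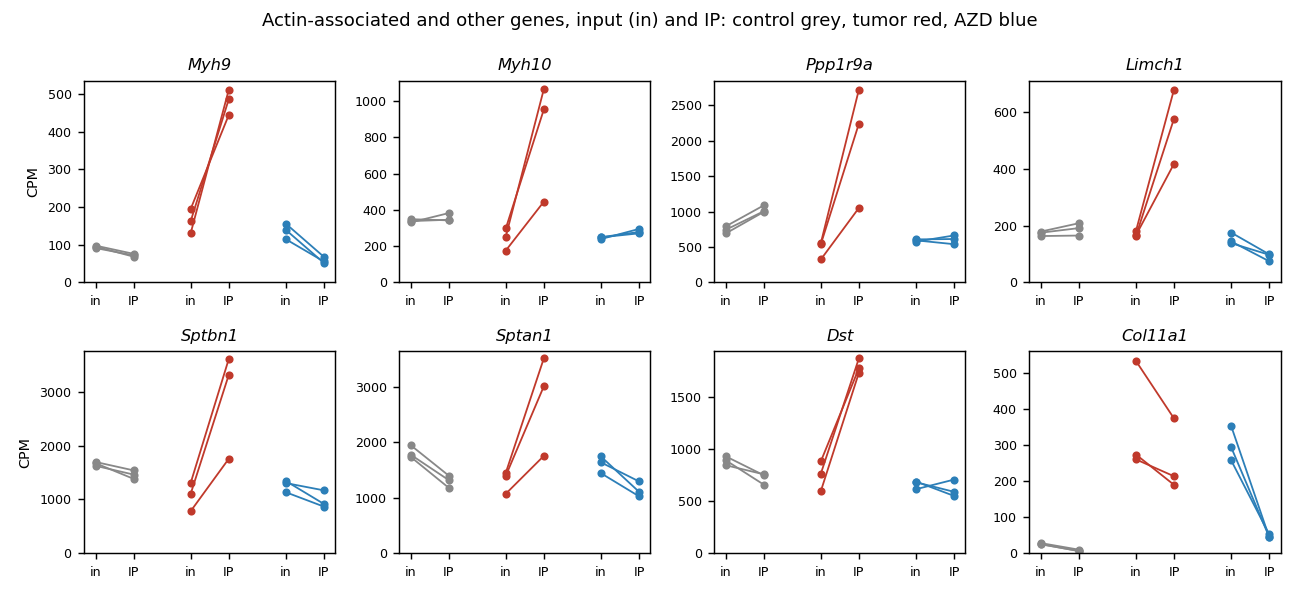
CPM (vertical axis, from 0) of 8 genes with a higher IP over input ratio in tumor than in control, in input (in) and IP, with a line for each numbered pair of control (grey), tumor (red) and AZD (blue). For the 7 cytoskeletal genes the tumor IP libraries lie above all tumor inputs, while control and AZD pairs rise less, stay level or fall, and Col11a1 falls in every pair, with the ratio of IP to input nearest to 1 in tumor.

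Several genes with a higher ratio in tumor lay outside that list. Dst, which encodes the cytoskeletal linker dystonin, had a difference of 1.60 ± 0.15 (1.29 ± 0.09 in tumor), Gtl3 of 1.89 ± 0.12 and Fbxo34, an F-box gene, of 1.33 ± 0.13. Of 44 collagen genes, grouped after their values were seen, 10 had a higher ratio in tumor and 0 a lower by edgeR (1 lower at an unadjusted p under 0.05, and 0 by DESeq2). The collagens were nevertheless depleted from both IPs, 25 of 43 being lower in tumor and 29 of 42 in control. Col11a1 stood at 532, 259 and 273 CPM in tumor input and 373, 212 and 189 in IP (-0.44 ± 0.08), and at 23.7 to 27.1 and 4.82 to 8.87 CPM in control, a difference of 1.57 ± 0.16. Of the 92 genes, 40 were higher in tumor IP and 36 were lower in IP in both conditions, so for the latter the difference was a weaker depletion. The 92 had a median genomic span of 63.5 kb where RefSeq gave one, against 23.8 kb for all genes tested.

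The 20 genes with a lower ratio in tumor were all higher in IP in control. Several belong to mitosis and had very low control levels. Nusap1, a spindle protein gene, stood in control at 1.34, 0.777 and 1.60 CPM (input) and 3.55, 3.79 and 4.13 CPM (IP), but at 36.4, 39.7 and 37.6 CPM in tumor input and 29.2, 41.5 and 36.2 in tumor IP. The control fractions did not overlap, the tumor fractions did, and the difference was -1.72 ± 0.22 (adjusted p = 0.000109). Kif20a (-1.83 ± 0.26), Kif15 (-0.98 ± 0.23) and Tubb6, a tubulin gene (-2.29 ± 0.28), stood lower in control than in tumor too, in both fractions. The call of Kif15 was lost in 5 of the 6 cases in which a pair of libraries was left out (adjusted p up to 0.295). Of 48 replication-dependent histone genes tested in control, 13 were higher in IP and 1 lower, and of 56 tested in tumor, 7 were higher and 22 lower. With no block edgeR called 0 higher and 3 lower in tumor. The difference was called for 3 of 56, all lower, among them Hist1h4h at -0.92 ± 0.15. Levels of these genes in input were several times higher in tumor than in control, the histone list summing to 1228 to 1337 CPM against 344 to 406.

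**Figure D5:**
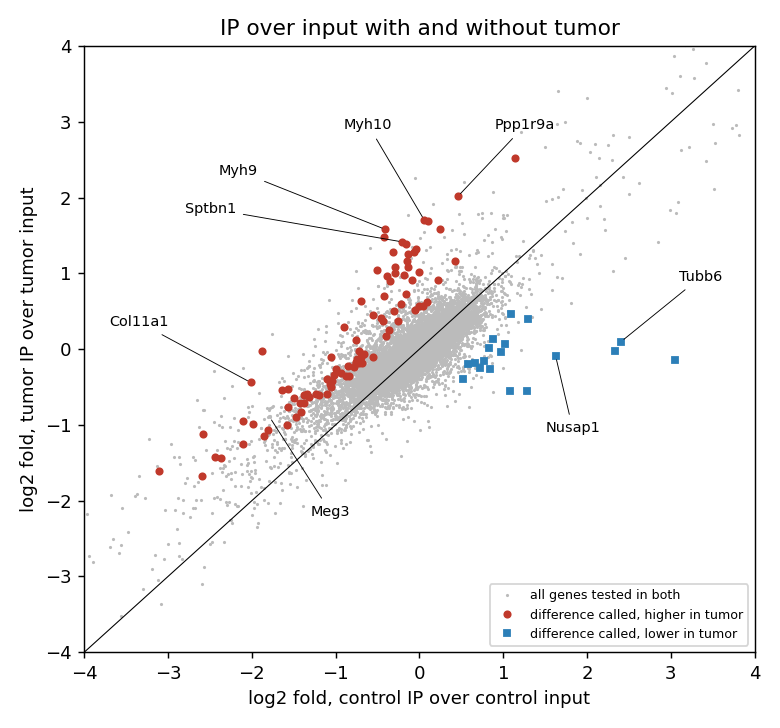
Log2 fold of IP over input in control (horizontal axis) and in tumor (vertical axis) for each gene tested in both, shown within 4 units of 0, with the line of equality. Of 14677 genes, 93 lie outside. Red circles are genes whose ratio was higher in tumor and blue squares genes whose ratio was lower; Myh9 and Ppp1r9a lie above the line, at -0.41 and 0.46 in control, and Nusap1 and Tubb6 lie right of it.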

How the data were processed

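The authors deposited raw read counts for 23420 gene symbols, and every column was matched to a sample by its label. Per the labels, the kits were RNeasy Mini for RNA and NEBNext Ultra Directional for libraries. Per the submitters' processing notes, STAR, DESeq2 and mm10 were used. Not given in the sources used here were versions, how reads were assigned to genes and whether strand was used.

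The deposited counts were analysed in edgeR 4.0.16 (R 4.3.3) by TMM scaling, filterByExpr, a quasi-likelihood F test with the replicate number as a block, Benjamini-Hochberg adjustment over all genes tested, and a threshold of 0.05. The fitted comparisons were tumor, control and AZD IP against input, and the difference of IP over input between tumor and control and between AZD and tumor. Levels are CPM, edgeR's scaled counts, and a pair's value is log2(CPM + 0.5) in IP minus input. Total counts of all 18 libraries lay between 13561511 and 34178417, and more counts mean a smaller error. Alternatives were no block, other scalings and filters, DESeq2 1.42.0 and leaving out libraries.

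The shared replicate numbers come from the labels. Same-number libraries deviated from their group means together, with correlations of 0.819, 0.587 and 0.631 in tumor across 16016 genes. In control these were 0.243 to 0.300, and with AZD 0.263 to 0.535. Replicates 2 and 3 also correlated across numbers, at 0.253 and 0.33 in tumor and 0.183 and 0.207 with AZD. Each same-number value was still the highest for its input, and the numbers were taken to pair the samples. On simulated data with 200 changed genes, 91% of changes of log2 1 and 61% of log2 0.5 were found in tumor IP against input (15098 genes, 10 false calls). In the difference of tumor and control 73% and 28% were found (15617 genes, 9 false calls). The simulation gave both libraries of a pair the same mean, took the dispersions of the blocked fit and held no library-set effect. Its false calls therefore do not speak to the pairing or the set.

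Members and 31 gene lists were chosen with earlier results of these data known. Genes were named by rule. In tumor they were the 15 highest and 15 lowest called genes with a mean of at least 10 CPM and the same sign in 3 pairs. In the difference they were the 8 highest and 8 lowest with that mean. From each list up to 5 called and 2 not called members could be named, beside a few fixed genes. The guide RNA, collagen and gene span groups were chosen after their values were seen. So were these other names: Sptan1, Sptb, Sptbn4, Dbn1, Actn1, Actn2, Myh14, Myo5a, Myo6, Flna and Snord91a. RefSeq (GRCm38.p6) matched 21571 symbols (92.1%) and gave coordinates and sequences. A few members are not reported here. A planned description by protein length was not run, since no protein table was used here. Python 3.11.15 and matplotlib 3.10.9 made the figures.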

Additional observations from a re-analysis of the deposited data

Results flagged for a closer look

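The results here drew attention because the IP over input ratio differed between conditions by a test of the difference itself (edgeR, adjusted p under 0.05, with the replicate number within condition as a block). Between tumor and control the ratio was higher in tumor for 92 genes and lower for 20. Between AZD and tumor it was higher with AZD for 3442 and lower for 4332, where library set and treatment cannot be told apart.

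Among the genes named in the text, the log2 difference of tumor minus control was 1.98 for Myh9, 1.64 for Myh10 and 1.30 for Myh14, the nonmuscle myosin heavy chains. It was 1.54 for Sptan1, 1.25 for Sptb, 1.61 for Sptbn1 and 0.80 for Sptbn4, the spectrins. Other actin-associated genes stood at 1.58 (Limch1), 1.55 (Ppp1r9a), 1.54 (Dbn1), 1.15 (Actn2), 1.02 (Myo5a), 0.80 (Myo6), 0.70 (Flna) and 0.53 (Actn1). Dst was at 1.60, Gtl3 at 1.89, Col11a1 at 1.57 and Fbxo34 at 1.33. The ratio was lower in tumor for Tubb6 at -2.29, Kif20a at -1.83, Nusap1 at -1.72, Kif15 at -0.98 and Hist1h4h at -0.92.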

How the results depend on the processing

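Without the replicate block, the calls in tumor went from 5433 to 776, in tumor minus control from 112 to 10 and in AZD minus tumor from 7774 to 4170, while control and AZD IP against input stayed within 1.5 times. All 776 were among the blocked calls. DESeq2 without the block called 1728 in tumor, also all among them. With no filter the difference of tumor and control held 298 calls. Leaving out a replicate gave 3924 to 5078 calls in tumor, 5168 to 6286 in control, 8700 to 10314 with AZD, 62 to 169 in tumor minus control (the extremes without control replicates 3 and 2, and 64 without tumor replicate 1) and 6439 to 8160 in AZD minus tumor. With total counts the median of all genes in tumor moved from -0.01 to -0.09, and 32.2% of the calls were higher against 49.3%.

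These list medians changed sign or, for T cell genes, reached 0. Leaving out a replicate gave -0.03 to 0.072 for mitochondrial ribosomal proteins, -0.008 to 0.065 for the respiratory chain, -0.053 to 0.037 for ATF4 targets, -0.053 to 0.055 for immediate-early genes, -0.104 to -0.001 for ependymal genes, -0.149 to 0.161 for the erythrocyte gene and -0.413 to 0 for T cell genes. With total counts the first pair stood at -0.056 and -0.029, and with RLE scaling ATF4 targets at 0.001. Of the genes not called in tumor, Arpp21 ranged from -0.116 to 0.013 without a replicate, Cldn5 from -0.212 to 0.016, Nusap1 from -0.173 to 0.001, Rpl22 from -0.015 to 0.08, Rpl7 from -0.127 to 0.04 and Slc17a7 from -0.004 to 0.284. Total counts gave -0.017 for Gria2, -0.037 for Rpl22 and -0.006 for Rpl4, and Rpl7 was at 0 with RLE and with DESeq2. Without the block Tubb6 gave -0.068 in edgeR and -0.04 in DESeq2. The cause was not tested. Of 109 named genes, 49 lost their call in tumor without the replicate block, and of 24 named differences 18 did and none changed sign. Depth limits the rare genes: the difference of Nusap1, at 0.777 to 1.60 CPM in control input, had a standard error of 0.22, against 0.15 for Myh9 at 91.3 to 97.8 CPM.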

Other observations

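Most energy and secretory genes were not called in tumor IP, as was so for all genes tested (17.6% higher, 18.1% lower). Of 75 respiratory chain and ATP synthase genes, 16 were higher and 7 lower (median log2 fold 0.05), and with AZD 67 of 76 were higher and 0 lower. Scaled by total counts 8 were higher and 15 lower in tumor, and without replicate 3 the counts were 9 and 15. Ndufa9 (0.49 ± 0.08) and Sdha (0.40 ± 0.08) were higher in tumor IP, and Atp5d was lower (-0.37 ± 0.09). Of 76 mitochondrial ribosomal protein genes, 15 were higher and 8 lower, but 6 and 15 with total counts. Of 40 genes of the endoplasmic reticulum, 10 were higher and 6 lower (5 and 8 with total counts), from the disulfide isomerase gene Pdia3 at 0.59 ± 0.09 to Ppib, cyclophilin B, at -1.83 ± 0.09. Of 40 lysosome genes 7 were higher and 9 lower, and 2 and 14 with total counts. With no replicate block edgeR called 1 respiratory chain gene (higher) and 2 mitochondrial ribosomal, 1 endoplasmic reticulum and 3 lysosome genes (all lower).

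Genes of signalling were mixed. Of 38 immediate-early genes 9 were higher and 10 lower. Bdnf, the neurotrophin gene, was higher at 0.67 ± 0.09, and the clock gene Per1 lower at -0.45 ± 0.08. Of 37 ATF4 targets 3 were higher and 5 lower, and 1 and 12 with total counts. Of 30 interferon response genes 11 were lower and 1 higher (median -0.35), and their summed input level was 624, 323 and 351 CPM, highest in replicate 1. Of 39 microtubule and neurofilament genes 16 were higher and 5 lower (9 and 6 with total counts), with Nefl, neurofilament light, at 0.74 ± 0.09 and Stmn2 at 0.81 ± 0.11. The dynein heavy chain gene Dync1h1 was lower at -0.42 ± 0.08. With no replicate block edgeR called 0 genes of the immediate-early, ATF4, interferon and microtubule lists, and DESeq2 1, 0, 0 and 2. In 3 T cell genes and 1 erythrocyte gene tested, edgeR and DESeq2 called 0 in either direction, 0 at an unadjusted p under 0.05, and of 6 ependymal genes 1 was higher and 1 lower.

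Across 13459 protein-coding genes the Spearman correlation of genomic span with log2 fold was 0.113 in tumor, against 0.026 over 13060 genes in control and 0.059 over 13131 with AZD. Genes are not independent replicates, and all of them share the same libraries. In tumor, 616 of 2705 genes of 80 kb and over were higher and 346 lower, and 197 of 1413 genes under 5 kb were higher and 279 lower.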
